A study of Homo sapiens with 9 samples.

Results

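Epithelial-mesenchymal transition (EMT) was examined through 10 genes chosen by their symbols from the 60683 genes in the count table. They comprise the transcription factors SNAI1, SNAI2, TWIST1, ZEB1 and ZEB2, the epithelial adhesion genes CDH1 and OCLN, and the mesenchymal genes CDH2, VIM and FN1. RNA was sequenced from Hep3B, a human liver cancer cell line, and every library came from this 1 line. Cultures received DMSO vehicle at 20% O2, DMSO vehicle at 1% O2, or 32-134D at 1% O2, each for 24 hours and with 3 replicates described in the labels as biological. 32-134D is an inhibitor of the hypoxia-inducible factors (HIFs), and the comparisons ask which hypoxic changes in these genes it inhibits. No 32-134D library at 20% O2 was included, and the labels state no dose.

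In EMT, epithelial cells give up apical-basal polarity and cell-cell junctions and acquire a motile, spindle-shaped form with a vimentin cytoskeleton. Proteins of the Snail, Twist and ZEB families drive the process, and the Snail and ZEB proteins repress CDH1 by binding E-boxes in its promoter. Hypoxia is a known trigger of EMT in carcinoma cells, in part through HIFs. Liver cells are an unusual setting for the classical markers, because hepatocytes carry both E-cadherin and N-cadherin and secrete plasma fibronectin.

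The deposited values were raw read counts per gene, with totals of 6013980 to 40549699 per library. Levels are given as CPM, read counts divided by a library size scaled with the TMM method. All 14 hepatocyte markers examined exceeded 1 CPM in every library, and their summed level was 12730 to 22330 CPM. The 14 stromal, endothelial and blood cell markers summed to 8.96 to 17.0 CPM, being lowest in vehicle at 1% O2, and VWF, KDR and DES had no counts. Per library, 2 to 6 gene identifiers of this list exceeded 1 CPM, and COL1A1 had group means of 3.62 to 7.05 CPM. In bulk RNA, fewer cells of a type and less RNA per cell cannot be told apart. Replicate 3 of 32-134D stood apart from replicates 1 and 2, the chi-square of its counts divided by the degrees of freedom being 36.4 and 32.5 against them and 2 between them. Its hepatocyte marker sum was also the lowest, at 12730 CPM against 20400 and 20060 CPM, and results are given without it where they differ. To a smaller extent, replicate 1 of each vehicle group was also further from its replicates. The values were 6.21 and 12 at 20% O2, against 1.62 between replicates 2 and 3. In vehicle at 1% O2 they were 7.9 and 11.8, against 2.48.

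Promoter windows in RefSeq (GRCh38.p14), from 250 bases before to 50 bases after a transcription start, were matched for 6 of the 10 genes, as 14 windows. One window is shown for each of the 4 matched genes that were called in the hypoxia comparison, VIM, CDH2, FN1 and OCLN, so that their sequences can be read beside their levels. CDH2 and OCLN each had a further window. Capitals mark matches on either strand to the hypoxia response cores ACGTG and GCGTG, and to the E-box CAGGTG bound by Snail and ZEB proteins.
VIM, chr10:17227991-17228290, plus strand: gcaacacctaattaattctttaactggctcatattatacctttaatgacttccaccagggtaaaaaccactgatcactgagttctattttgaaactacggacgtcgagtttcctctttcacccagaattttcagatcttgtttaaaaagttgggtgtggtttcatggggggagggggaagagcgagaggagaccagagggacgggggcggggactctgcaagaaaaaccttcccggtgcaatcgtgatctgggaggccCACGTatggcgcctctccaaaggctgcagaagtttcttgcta
CDH2, chr18:28177081-28177380, minus strand: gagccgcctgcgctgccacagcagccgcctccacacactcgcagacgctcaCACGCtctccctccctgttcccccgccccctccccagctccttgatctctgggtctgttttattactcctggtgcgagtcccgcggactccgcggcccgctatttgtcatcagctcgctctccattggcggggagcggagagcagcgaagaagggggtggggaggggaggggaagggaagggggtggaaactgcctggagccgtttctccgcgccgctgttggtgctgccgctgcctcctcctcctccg
FN1, chr2:215436019-215436318, minus strand: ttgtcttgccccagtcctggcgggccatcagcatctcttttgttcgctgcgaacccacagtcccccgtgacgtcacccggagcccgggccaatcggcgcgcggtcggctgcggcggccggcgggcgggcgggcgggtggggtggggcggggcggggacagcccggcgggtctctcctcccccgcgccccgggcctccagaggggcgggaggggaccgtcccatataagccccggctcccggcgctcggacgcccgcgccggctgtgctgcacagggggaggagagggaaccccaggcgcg
OCLN, chr5:69492540-69492839, plus strand: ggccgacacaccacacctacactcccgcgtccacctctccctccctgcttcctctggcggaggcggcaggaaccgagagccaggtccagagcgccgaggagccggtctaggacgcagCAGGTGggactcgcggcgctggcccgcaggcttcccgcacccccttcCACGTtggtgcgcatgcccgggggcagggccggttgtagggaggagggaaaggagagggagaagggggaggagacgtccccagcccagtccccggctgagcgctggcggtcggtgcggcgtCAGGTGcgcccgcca
The VIM window held 1 match, CACGT at position 9 after the start, which is ACGTG on the other strand. The CDH2 window held CACGC, the reverse complement of GCGTG, at position -199, and the further CDH2 window held no match. The FN1 window held none of these letters. The OCLN window held CAGGTG at positions -133 and 36 and CACGT at position -86, and the further OCLN window held CAGGTG at position -33. Over 35116 promoter windows, ACGTG was present in 21.4%, GCGTG in 36.5% and CAGGTG in 20.6%. At least 1 of the hypoxia response cores ACGTG and GCGTG was present in 48.4%. The E-box CACGTG, which overlaps ACGTG, was in 7.26%. A match is a description of sequence only. No window was matched for SNAI1, SNAI2, TWIST1 or CDH1.

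Hypoxia did not move the EMT genes in a single direction. Among the 9 members with enough counts to test, 4 rose in vehicle at 1% O2 compared with vehicle at 20% O2, namely SNAI1, SNAI2, VIM and OCLN. By comparison, 19.5% of the 22672 genes tested rose, and 39.7% were called in either direction. CDH2 and FN1 fell, which is 2 of 9 against 20.3% of all genes. A call required an edgeR quasi-likelihood false discovery rate (FDR, Benjamini-Hochberg) below 0.05 and a fold change above 1.5. CDH1 passed the FDR threshold and was lower, but by 1.37-fold, short of the fold threshold, and ZEB1 and ZEB2 did not pass the FDR threshold. OCLN, an epithelial junction gene, rose as the Snail factors and vimentin did, and 2 of the 3 mesenchymal genes fell. The median log2 fold change was 0.60 over the 9 members and 0.001 over all genes tested.

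**Figure D1:**
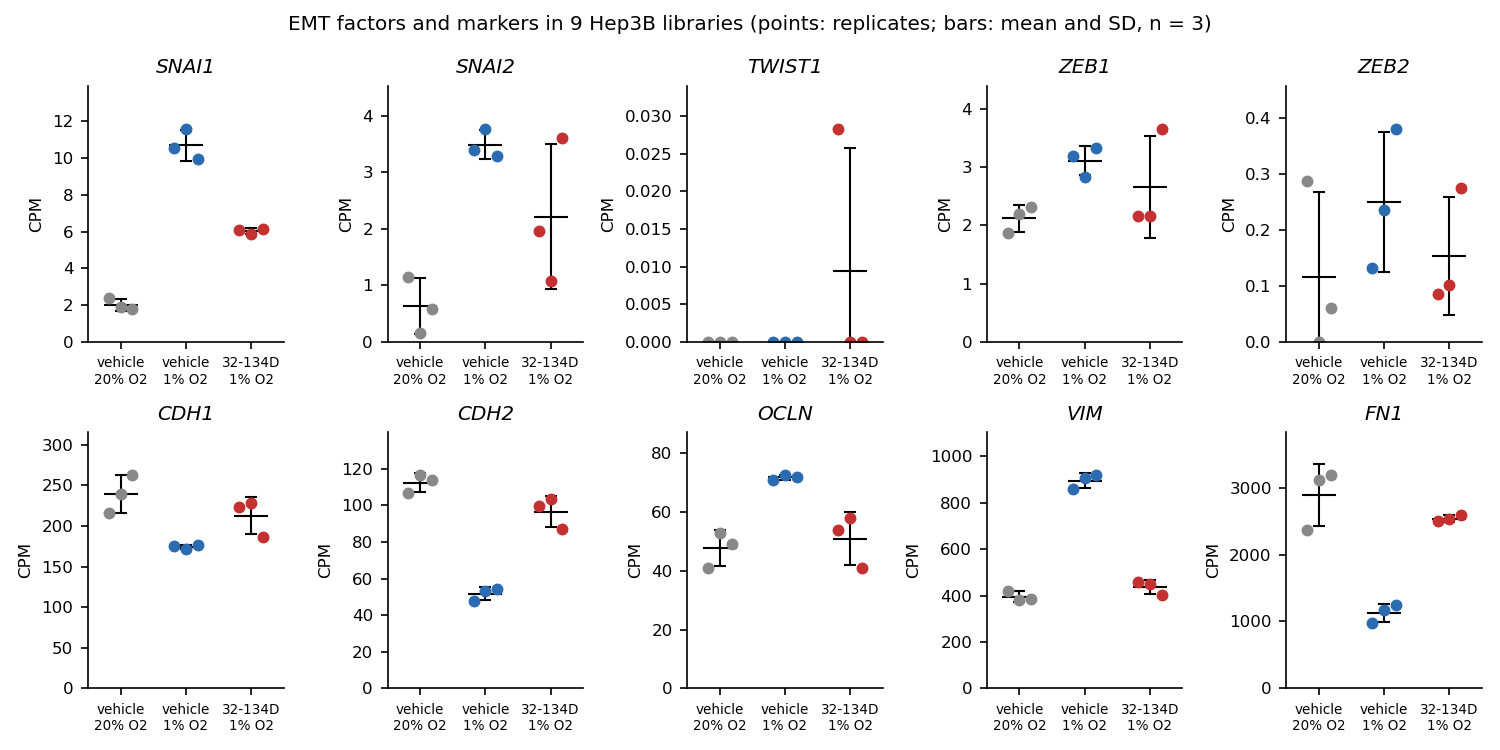
Level of each of the 10 genes in every library (CPM, linear axes from 0), with points for replicates and bars for the group mean ± SD (n = 3). SNAI1 and VIM were highest in all 3 vehicle libraries at 1% O2, and CDH2 and FN1 were lowest there.

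With 32-134D at 1% O2, compared with vehicle at 1% O2, SNAI1 and VIM fell and CDH2 and FN1 rose. This was 2 of 9 members lower, against 13.7% of all genes tested, and 2 of 9 higher, against 16.2%, with 29.9% of all genes called in either direction. CDH1 and OCLN passed the FDR threshold but not the fold threshold, and SNAI2, ZEB1 and ZEB2 did not pass the FDR threshold. The hypoxia and 32-134D comparisons share the libraries of vehicle at 1% O2, so that their values are given side by side and are not independent. Compared with vehicle at 20% O2, 32-134D at 1% O2 left SNAI1 and SNAI2 higher, 2 of 9 members against 3% of all genes tested higher and 3.52% called in either direction. Called lower were 0 of 9 by edgeR and 0 by DESeq2, against 0.516% of all genes. In the edgeR fit, 1 lower member, CDH2, had an unadjusted p below 0.05.

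**Figure D2:**
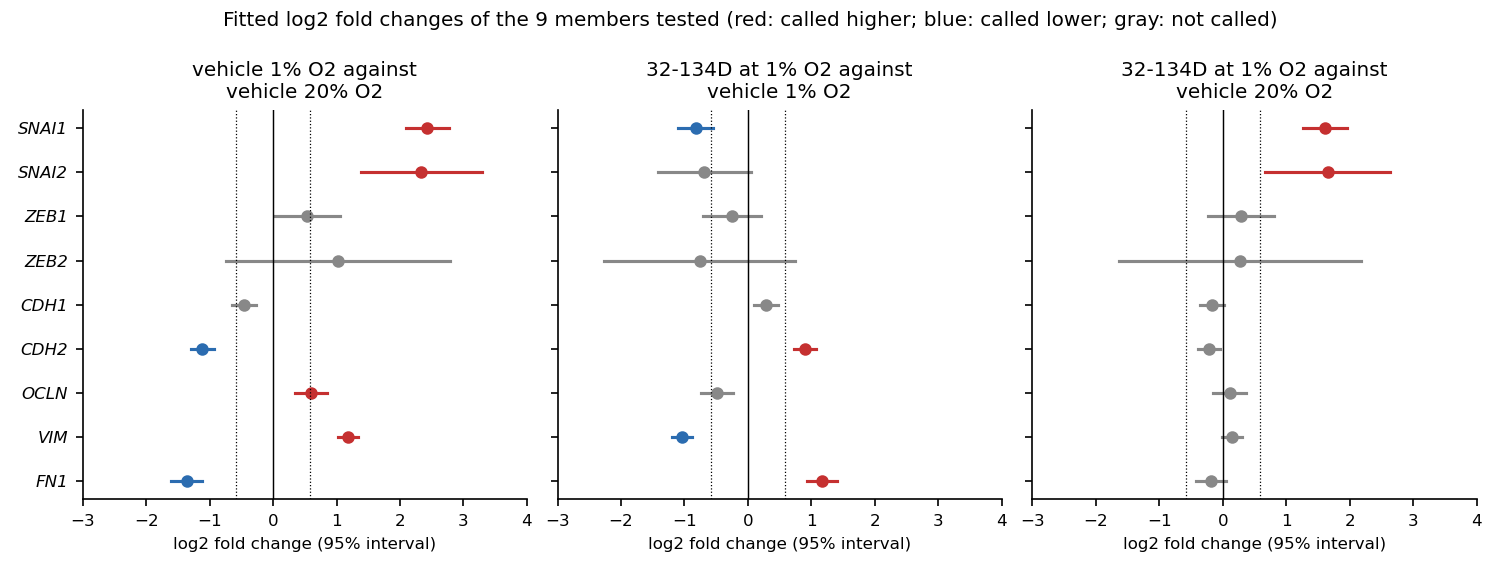
Log2 fold change of the 9 tested genes in the 3 comparisons (points, with approximate 95% confidence intervals computed from the edgeR fold change and F statistic). SNAI1 lay at 2.43, -0.82 and 1.61, and VIM at 1.18, -1.04 and 0.15.

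SNAI1 (ENSG00000124216, chromosome 20, 49982999 to 49988886, plus strand) encodes Snail, a zinc finger repressor of CDH1. It was counted at 2.37, 1.88 and 1.76 CPM in vehicle at 20% O2, at 10.5, 11.6 and 9.96 CPM in vehicle at 1% O2, and at 6.10, 5.86 and 6.13 CPM with 32-134D. The 3 groups did not overlap, and the 32-134D libraries lay between the vehicle groups. SNAI1 rose 5.39-fold in hypoxia (log2 fold change 2.43 ± 0.16 SE, edgeR FDR = 9.17e-09). With 32-134D it fell by 0.82 on the log2 scale (SE 0.13, edgeR FDR = 9.74e-05) and remained 3.05-fold above vehicle at 20% O2. Leaving out any single library kept these calls, with hypoxia values of 2.28 to 2.52.

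SNAI2 (ENSG00000019549, chromosome 8, 48917604 to 48921740, minus strand) encodes Slug, a related repressor. It was sparse at 20% O2, with 16, 1 and 19 counts, or 1.15, 0.157 and 0.578 CPM. Vehicle at 1% O2 gave 3.39, 3.77 and 3.28 CPM, above every library at 20% O2. The rise was 5.05-fold (log2 fold change 2.34 ± 0.443 SE, edgeR FDR = 3.73e-04). The 32-134D libraries were spread over 1.96, 1.08 and 3.61 CPM, and replicate 3, the library that stood apart, was within the vehicle range at 1% O2. The 32-134D difference was -0.68 (95% interval -1.42 to 0.05, edgeR FDR = 0.118), and without that replicate it was -1.16 (edgeR FDR = 1.72e-04). The call above vehicle at 20% O2 (log2 fold change 1.65, edgeR FDR = 0.0343) was lost when any of 4 vehicle libraries was left out. Those were replicates 2 and 3 at 20% O2 (edgeR FDR = 0.106 and 0.201) and replicates 1 and 2 at 1% O2 (edgeR FDR = 0.0577 and 0.0546).

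ZEB1 (ENSG00000148516, chromosome 10, 31318495 to 31529814, plus strand) encodes a zinc finger homeobox repressor. Its levels were 1.86, 2.20 and 2.31 CPM in vehicle at 20% O2, 3.18, 2.83 and 3.32 CPM in vehicle at 1% O2, and 2.16, 2.16 and 3.66 CPM with 32-134D. The vehicle groups did not overlap, but the difference of 0.54 on the log2 scale (95% interval 0.03 to 1.05) had an edgeR FDR of 0.0676. In the fit without replicate 3 of 32-134D, this hypoxic difference was 0.53 and passed the FDR threshold (edgeR FDR = 0.0156) but not the fold threshold. The 32-134D difference was -0.26 (interval -0.72 to 0.20, edgeR FDR = 0.357), and without replicate 3 of 32-134D it was -0.54 (edgeR FDR = 0.0153), below the fold threshold. ZEB1-AS1, which shares 366 exonic bases with ZEB1 on the opposite strand, rose in hypoxia (log2 fold change 0.77, edgeR FDR = 0.0224). The strand setting of the counting is not given in the sources used here, so reads in the shared bases cannot be told apart.

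ZEB2 (ENSG00000169554, chromosome 2, 144364364 to 144524583, minus strand), a related repressor, had 39 counts over the 9 libraries. It reached at most 0.380 CPM, and a hypoxic difference was not detectable at this depth (log2 fold change 1.02, 95% interval -0.75 to 2.79, edgeR FDR = 0.318). TWIST1 (ENSG00000122691, chromosome 7, 19020991 to 19117672, minus strand), a basic helix-loop-helix factor, had 1 count, in replicate 1 of 32-134D, and was not tested. A count of 0 allows up to 3 counts, which is 0.0795 to 0.471 CPM depending on the library, for counting error only.

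CDH1 (ENSG00000039068, chromosome 16, 68737225 to 68835548, plus strand) encodes E-cadherin, the adhesion molecule of epithelial adherens junctions. It was at 216, 240 and 263 CPM in vehicle at 20% O2, at 175, 171 and 177 CPM in vehicle at 1% O2, and at 224, 229 and 186 CPM with 32-134D. Every hypoxic vehicle library was below every other library, and replicate 3 of 32-134D was the nearest to them. The hypoxic difference was larger than the spread between replicates but smaller than 1.5-fold (log2 fold change -0.46 ± 0.0899 SE, edgeR FDR = 5.09e-04). Scaling by total library size gave -0.67 and by the upper quartile -0.65, both past the threshold. The 32-134D difference was 0.29 (95% interval 0.10 to 0.48, edgeR FDR = 0.0151), and CDH1 with 32-134D differed from vehicle at 20% O2 by -0.17 (interval -0.36 to 0.02).

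OCLN (ENSG00000197822, chromosome 5, 69492292 to 69558104, plus strand) encodes occludin, a membrane protein of tight junctions. It was at 40.9, 52.9 and 49.1 CPM in vehicle at 20% O2, at 70.7, 72.5 and 72.0 CPM in vehicle at 1% O2, and at 54.0, 58.0 and 40.8 CPM with 32-134D. The hypoxic vehicle libraries were the highest and lay close together. OCLN rose 1.51-fold (log2 fold change 0.60 ± 0.12 SE, edgeR FDR = 6.00e-04), just past the fold threshold. The direction held in each alternative, but the fold dropped below 1.5 with DESeq2 (0.55 on the log2 scale), with 3 other scalings (0.38 to 0.55), with at least 10 counts required in every library (0.49), with thinning (0.57) and without replicate 1 at 20% O2 (0.45), replicate 3 of vehicle at 1% O2 (0.585) or replicate 1 of 32-134D (0.54). With 32-134D the difference was -0.49 (95% interval -0.74 to -0.24, edgeR FDR = 2.75e-03), below the fold threshold, and without replicate 2 of 32-134D it was -0.59 and was called. Without replicate 3 of 32-134D it was smaller, at -0.36 (edgeR FDR = 6.87e-04). The difference of 32-134D from vehicle at 20% O2 was 0.11 with all libraries (edgeR FDR = 0.652). Without that replicate it was 0.24 (edgeR FDR = 0.0704). OCLNP1, a copy of part of OCLN with 227 counts, fell in hypoxia (log2 fold change -1.22, edgeR FDR = 0.00351), opposite to OCLN, and counting could split reads between them.

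CDH2 (ENSG00000170558, chromosome 18, 27950966 to 28177446, minus strand) encodes N-cadherin, whose gain in place of E-cadherin is a classical sign of EMT. Its levels were 107, 117 and 114 CPM in vehicle at 20% O2, 48.0, 53.0 and 54.5 CPM in vehicle at 1% O2, and 99.4, 104 and 86.9 CPM with 32-134D. The 3 groups did not overlap, and the hypoxic vehicle group was the lowest. CDH2 fell 2.17-fold in hypoxia (log2 fold change -1.12 ± 0.084 SE, edgeR FDR = 3.68e-08) and rose 1.87-fold with 32-134D (log2 fold change 0.90 ± 0.0828 SE, edgeR FDR = 6.08e-07). With 32-134D it differed from vehicle at 20% O2 by -0.22 (95% interval -0.39 to -0.04, edgeR FDR = 0.119).

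The ratio of CDH2 to CDH1 counts, which does not depend on library scaling, was 0.495, 0.487 and 0.434 in vehicle at 20% O2. It was 0.274, 0.309 and 0.308 in vehicle at 1% O2, and 0.444, 0.453 and 0.466 with 32-134D. The hypoxic vehicle libraries had the lowest ratios, CDH2 being lower there by more than CDH1 was. The ratio was 1.59-fold lower in hypoxia and 1.53-fold higher with 32-134D than in vehicle at 1% O2 (2-sided exact permutation p = 0.1 for each, the smallest that 3 against 3 libraries allow). It was 1.04-fold lower with 32-134D than in vehicle at 20% O2 (exact permutation p = 0.5).

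**Figure D3:**
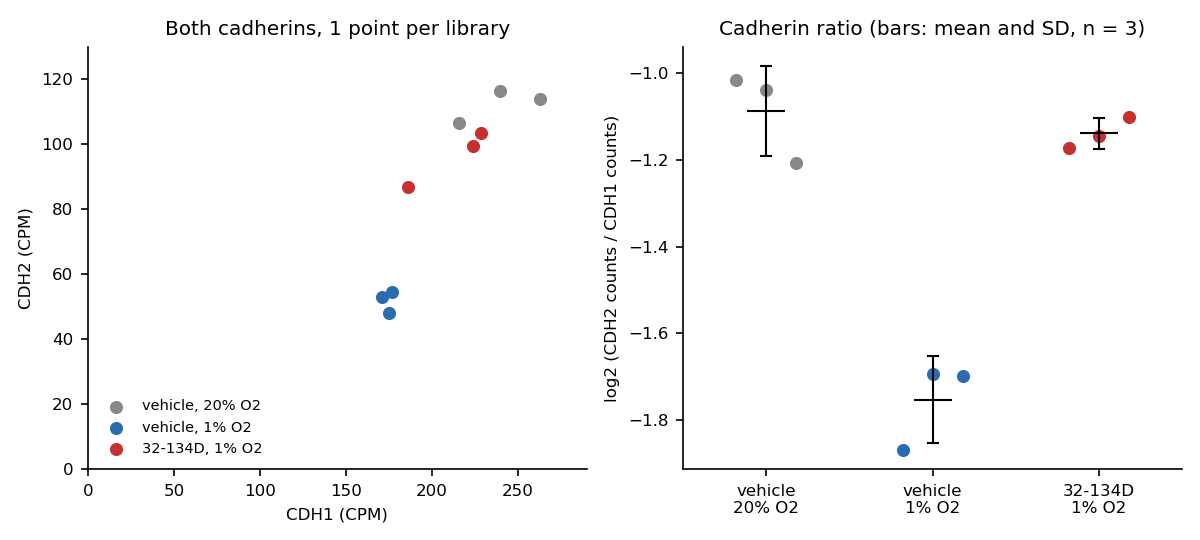
CDH1 and CDH2 levels (CPM) and the log2 ratio of CDH2 to CDH1 counts in each of the 9 libraries, with the mean and SD of each group (n = 3). The ratio, before taking logs, was 0.274 to 0.309 in vehicle at 1% O2 and 0.434 to 0.495 in the other libraries.

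VIM (ENSG00000026025, chromosome 10, 17228259 to 17237593, plus strand) encodes vimentin, the intermediate filament protein of mesenchymal cells. It was at 421, 379 and 384 CPM in vehicle at 20% O2, at 859, 909 and 919 CPM in vehicle at 1% O2, and at 457, 451 and 402 CPM with 32-134D. All 3 hypoxic vehicle libraries were above every other library, and the remaining groups overlapped. VIM rose 2.27-fold in hypoxia (log2 fold change 1.18 ± 0.0748 SE, edgeR FDR = 6.26e-09) and fell 2.05-fold with 32-134D (log2 fold change -1.04 ± 0.0743 SE, edgeR FDR = 6.21e-08). It differed from vehicle at 20% O2 by 0.15 with 32-134D (95% interval -0.01 to 0.30). VIM-AS1 and AL133415.1 share 641 and 619 exonic bases with VIM on the opposite strand, with 339 and 241 counts in all against 137460 for VIM.

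FN1 (ENSG00000115414, chromosome 2, 215360440 to 215436172, minus strand) encodes fibronectin, a matrix protein of mesenchymal cells that hepatocytes also secrete into plasma. It was at 2361, 3118 and 3187 CPM in vehicle at 20% O2, at 973, 1173 and 1239 CPM in vehicle at 1% O2, and at 2495, 2532 and 2589 CPM with 32-134D. The hypoxic vehicle libraries were again the lowest, and the 32-134D libraries fell within the range at 20% O2. FN1 fell 2.56-fold in hypoxia (log2 fold change -1.36 ± 0.112 SE, edgeR FDR = 9.83e-08) and rose 2.25-fold with 32-134D (log2 fold change 1.17 ± 0.111 SE, edgeR FDR = 8.43e-07). Counts were per gene, so cellular and plasma splice forms of FN1 were not separated.

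Levels were compared between genes after division by exon length. In vehicle at 20% O2, FN1 was highest at 167 CPM per kb, followed by VIM at 76.5, CDH1 at 38.7, CDH2 at 22.7 and OCLN at 7.04 CPM per kb. SNAI1 was at 1.19 CPM per kb, and ZEB1, SNAI2 and ZEB2 were at 0.246, 0.185 and 0.00462 CPM per kb, the ZEB1 and SNAI2 libraries overlapping. In vehicle at 1% O2 VIM was first at 174 CPM per kb and FN1 next at 65.2 CPM per kb. CDH2 at 10.5 and OCLN at 10.6 CPM per kb differed there by less than the spread between replicates. With 32-134D, FN1 was again first at 147 CPM per kb, ahead of VIM at 84.6 CPM per kb.

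**Figure D4:**
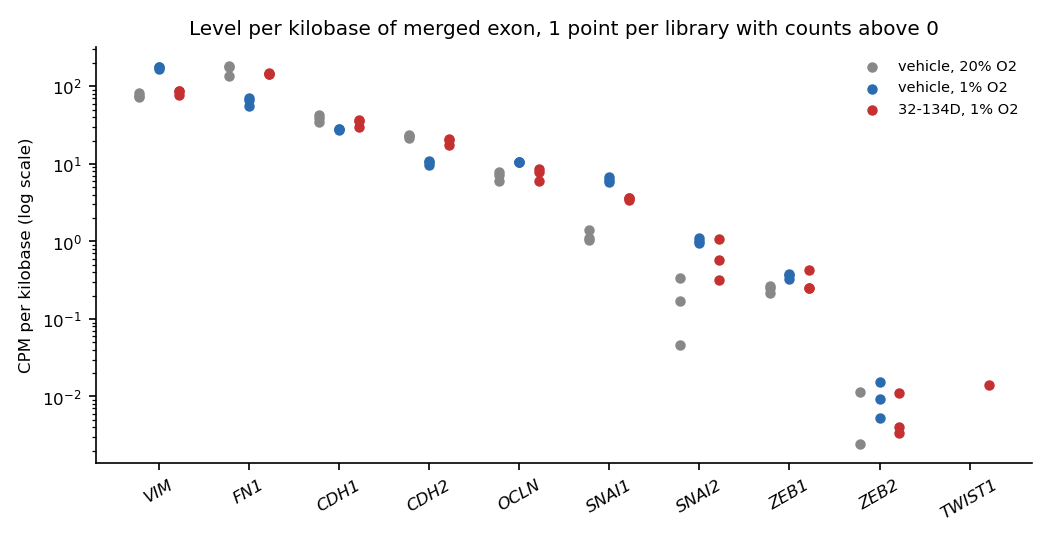
Level per kb of exon (CPM per kb, log axis) of each gene, with a point for each library that had counts. By group mean, FN1 was highest in vehicle at 20% O2 (167) and with 32-134D (147), and VIM in vehicle at 1% O2 (174).

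Other genes of the EMT program were described by 5 lists, and the genes named from them by rule had an edgeR FDR of 0.00395 or below in hypoxia. Of 10 tested factors that promote EMT, 4 rose (40%, against 19.5% of all genes tested) and 1 fell (10%, against 20.3%) in hypoxia, with a median log2 fold change of 0.37. FOXC1, a forkhead factor, rose from 3.45 ± 0.823 to 26.1 ± 1.23 CPM (mean ± SD, n = 3) and was at 10.5 ± 0.279 CPM with 32-134D. ETS1 and LEF1 also rose, and TCF4 fell. With 32-134D, 3 fell (30%, against 13.7% of all genes), including FOXC1 and ETS1, and 1, FOSL1, rose (10%, against 16.2%). LEF1, a partner of beta-catenin, was at 3.61 ± 0.446 CPM in hypoxic vehicle and 3.57 ± 1.67 CPM with 32-134D. Its libraries ranged from 3.13 to 4.01 CPM in hypoxic vehicle and from 2.39 to 5.49 CPM with 32-134D, so the similar means hide a wide spread. TCF4 and FOSL1 lie outside the naming rule and were named after their values were seen. TCF4 was not called without replicate 1 or 3 at 20% O2 or replicate 1 of vehicle at 1% O2, where 0 factors were lower. FOSL1 was not called without replicate 2 or 3 at 20% O2 or replicate 1 or 3 of vehicle at 1% O2, where 0 were higher with 32-134D. It was at 2.74 ± 2.2 CPM with 32-134D, its libraries ranging from 1.01 to 5.21 CPM. Those of vehicle at 1% O2 ranged from 0.795 to 1.35 CPM, so the groups overlapped. A count of 1 factor higher with another library left out does not show that this factor was FOSL1.

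Factors that maintain the epithelial state also moved both ways, and 7 of 15 tested rose and 3 fell in hypoxia (median log2 fold change 0.48). The share that rose was 46.7%, against 19.5% of all genes, and the share that fell, 20%, was near the 20.3% of all genes. KLF4 rose from 1.12 ± 0.159 to 18.6 ± 1.55 CPM and was at 5.10 ± 0.278 CPM with 32-134D. ELF3, an epithelial ETS factor, rose from 66.2 to 310.2 CPM and was at 100.2 CPM with 32-134D. Its relatives EHF and ELF5 fell, from 3.25 to 0.309 CPM and from 2.92 to 0.538 CPM, and were at 2.17 and 1.88 CPM with 32-134D. With 32-134D, 3 of the 15 rose (20%, against 16.2% of all genes) and 6 fell (40%, against 13.7%), compared with vehicle at 1% O2.

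Among 43 tested junction and polarity genes, 5 rose and 10 fell in hypoxia (median log2 fold change -0.13), and 8 rose and 5 fell with 32-134D. In hypoxia 11.6% rose and 23.3% fell, against 19.5% and 20.3% of all genes, and with 32-134D 18.6% rose and 11.6% fell, against 16.2% and 13.7%, so that 3 of these 4 shares were near those of all genes. CGNL1, which encodes paracingulin at tight junctions, fell from 191 ± 28.3 to 18.4 ± 0.715 CPM and was at 142 ± 31.2 CPM with 32-134D. The claudin genes CLDN4 and CLDN2 fell from 1.87 to 0.279 CPM and from 3.14 to 0.803 CPM. PARD6B, a polarity gene, rose from 15.3 to 51.7 CPM, as OCLN did. Without replicate 1 at 20% O2, 3 junction genes rose in hypoxia, and without replicate 3 of 32-134D, 3 fell with 32-134D.

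Of 33 tested mesenchymal cytoskeleton and matrix genes, 15 fell and 3 rose in hypoxia (median log2 fold change -0.51), and 13 rose and 3 fell with 32-134D (median 0.52). The shares that fell and rose in hypoxia were 45.5% and 9.09%, against 20.3% and 19.5% of all genes tested, and with 32-134D 39.4% rose and 9.09% fell, against 16.2% and 13.7%. The 13 that rose include VCAN, whose 18 counts all lay in the 32-134D libraries (mean 0.204 CPM). It passed the count filter only through that group, so its call carries no weight. FBN1, which encodes fibrillin-1, fell from 31.0 ± 5.71 to 3.83 ± 0.502 CPM and was at 25.1 ± 0.882 CPM with 32-134D. NT5E, the ecto-enzyme CD73, and ITGAV, an integrin subunit that binds fibronectin and vitronectin, fell from 42.1 to 8.81 CPM and from 285 to 68.3 CPM. Without replicate 3 of 32-134D, 6 of these genes rose in hypoxia. The summed level of the 14 stromal, endothelial and blood cell markers was 15.4 to 16.2 CPM in vehicle at 20% O2, 8.96 to 10.3 CPM in vehicle at 1% O2 and 13.03 to 17.01 CPM with 32-134D. Of the 8 gene identifiers tested from this list, 5 fell in hypoxia (62.5%, against 20.3% of all genes tested). With 32-134D, 4 of the 8 rose (50%, against 16.2%). LRAT and CD68 had hypoxic log2 fold changes of 0.58 and 0.49 that did not pass the test. The part of the stromal, endothelial and blood cell markers in the results was not tested.

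Of 18 tested other cadherins and catenins, 5 fell and 1 rose in hypoxia, and 5 rose and 1 fell with 32-134D. The shares were 27.8% lower and 5.56% higher in hypoxia, against 20.3% and 19.5% of all genes, and 27.8% higher and 5.56% lower with 32-134D, against 16.2% and 13.7%. CDH6, a classical cadherin, fell from 309 ± 32.7 to 129 ± 22.5 CPM and was at 289 ± 15.9 CPM with 32-134D, and CTNND2, a delta-catenin, fell from 210.0 to 53.8 CPM. CDH7 was the 1 that rose, from 1.14 to 4.25 CPM, and its call with 32-134D was lost without replicate 3 of vehicle at 1% O2 or replicate 1 of 32-134D. Compared with vehicle at 20% O2, 32-134D left 3 EMT-promoting factors (including LEF1 and FOXC1), 2 epithelial-state factors (ELF3 and KLF4), 1 junction gene (PARD6B), 3 mesenchymal genes (including LUM and VCAN) and 1 cadherin (CDH7) higher. As shares of the tested genes in each list these were 30%, 13.3%, 2.33%, 9.09% and 5.56%, against 3% of all genes. LUM and VCAN were named after their values were seen. VCAN had no counts in either vehicle group and a mean of 0.204 CPM with 32-134D, so it entered the test only through the group where it was high.

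**Figure D5:**
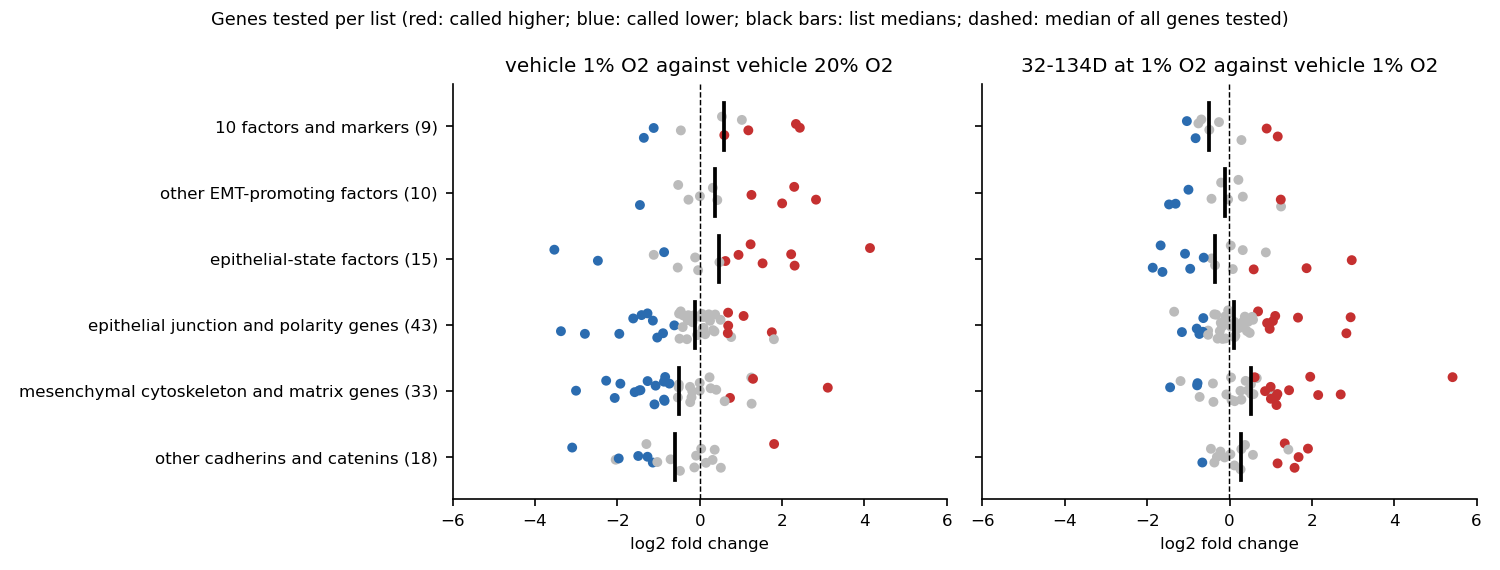
Log2 fold changes of the tested genes in the 5 EMT lists for the hypoxia and 32-134D comparisons (points), with list medians. The mesenchymal list had medians of -0.51 and 0.52, and the point at 5.42 with 32-134D is VCAN, whose fitted value depends on the prior count because vehicle had no counts.

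Library scaling bore on how many genes were called in each direction. In hypoxia, 49% of all calls were higher with TMM scaling, 34.5% with total library size and 35.7% with the upper quartile, and total library size moved the median of all genes by -0.21. With 32-134D, 54.2% were higher with TMM, 72% with total library size and 66.1% with the upper quartile. All 9 tested members kept their direction in these 2 comparisons under each scaling.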

How the data were processed

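RNA-seq was performed on 9 Hep3B libraries, 3 in each of 3 groups taken from the sample labels. The authors deposited raw counts per Ensembl gene, made by aligning reads to GRCh38 with STAR and counting with featureCounts; versions and strand setting are not given in the sources used here. All 9 columns were matched to samples by name. Replicates differed by more than counting error (chi-square over degrees of freedom 1.62 to 36.4), so none was a duplicate. Total counts of 6013980 to 40549699 limit the precision for low genes.

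From these counts, all libraries were fitted together with edgeR 4.0.16 in R 4.3.3 (TMM scaling, quasi-likelihood test). The 22672 genes whose summed count reached 10 entered the test, and 27399 genes had no counts. Calls needed an FDR below 0.05 and a fold change above 1.5. Positions and exon lengths came from GENCODE 29 on GRCh38, and promoter sequences from RefSeq (GRCh38.p14). The genes and lists were chosen with earlier results of these data known. Genes named were the 10 members, the 4 with the largest hypoxic change per list among called genes with a mean of at least 1 CPM, detected copies and antisense partners, and, for members with a mean of at least 1 CPM, the 2 genes with the most similar pattern. Alternatives were DESeq2 1.42.0, other scalings, filters and fold thresholds, 2-group fits, thinning to the smallest library, each library left out in turn and a replicate block. The values of some single genes that the naming rule covers are not reported here.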

Additional observations from a re-analysis of the deposited data

How the results depend on the processing

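SNAI1, VIM, CDH2 and FN1 kept their direction and call in the hypoxia and 32-134D comparisons when each library was left out. No pairing by replicate number was seen in the correlations of deviations from group means. These were -0.032 to 0.005 for the same number and -0.017 to 0.037 for different numbers. Many genes had few counts, so the check cannot show that cultures of the same number were handled apart. The replicate block changed 1 member call, ZEB1 in hypoxia (0.60, edgeR FDR = 0.0376). The following numbers of called genes moved by over 1.5 times, and where the setting itself does not show the cause, the cause was not tested. In hypoxia, EMT-promoting factors lower were 0 with DESeq2 and with thinning, 2 with total library size or the upper quartile and 3 with no fold threshold. Epithelial-state factors lower were 5 with either of those scalings, and higher were 3 with at least 10 counts in every library. Junction genes higher were 2 with those scalings, with that filter and with a fold above 2, and 8 with no fold threshold, where 18 were lower. Mesenchymal genes higher were 6 with no filter or 2 groups and 5 with no fold threshold. Other cadherins higher were 0 and lower 3 with the 10-count filter, and 4 higher with no fold threshold. Members higher were 2 with the 10-count filter. With 32-134D, EMT-promoting factors higher were 2 with both scalings, no filter or no fold threshold, and 0 with the 10-count filter or 2 groups. Epithelial-state factors lower were 2 with the 10-count filter. Junction genes higher were 13 with total library size, 18 with no fold threshold and 5 with a fold above 2, and lower were 2 with total library size, 3 with the upper quartile, the 10-count filter or thinning, 8 with no fold threshold and 1 with a fold above 2. Mesenchymal genes lower were 5 with no fold threshold and 1 with a fold above 2. Cadherins lower were 0 with both scalings, the 10-count filter or a fold above 2 and 4 with no fold threshold, and higher were 3 with the 10-count filter. Members were 1 higher and 1 lower with a fold above 2. Compared with vehicle at 20% O2, 1 member was higher with the 10-count filter, 2 groups or thinning. Leaving out 1 library gave in hypoxia 0 to 2 EMT-promoting factors lower, 3 to 5 junction genes higher and 3 to 6 mesenchymal genes higher, with 32-134D 0 to 1 EMT-promoting factors higher, 3 to 5 junction genes lower and 0 to 1 cadherins lower, and 1 to 2 members higher against vehicle at 20% O2. In that comparison the ZEB2 difference reversed to -0.40 without replicate 3 at 20% O2 and to -0.32 without replicate 3 of 32-134D, and ZEB1 to -0.00486 without the latter (ranges over single libraries left out -0.40 to 1.44 for ZEB2 and -0.00486 to 0.426 for ZEB1, neither past the threshold). SNAI2 with 32-134D was called with no filter (-0.69, edgeR FDR = 0.0081). Of the single-gene values of the members, 7 gained a call, 11 lost one and 270 kept both direction and call under settings that left out no single library, and 2, 7 and 231 did so with a library left out, besides 3 that reversed. Of the 11 lost, 9 stayed below an FDR of 0.05 and missed only the fold threshold in use, and the other two were SNAI2 against vehicle at 20% O2. Low counts limit SNAI2, ZEB2 and TWIST1.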

Other observations

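The genes whose pattern most resembled that of each member were found by Pearson's r of log2 CPM (prior count 2) over the 9 libraries, among 13910 genes. Pearson's r compares neither levels nor sizes of change, which can differ between such genes. The libraries share 3 groups, so r is a description of the group pattern. For SNAI1 they were HBEGF (r = 0.9975), an EGF receptor ligand, and SERTAD1 (0.9967), and for VIM they were IGSF8 (0.9989) and CDKN1B (0.9983), a cyclin-dependent kinase inhibitor. CDH2 was nearest to RALGPS1 (0.9987) and MECOM (0.9983), and FN1 to AC018638.2 (0.9975) and FTO (0.9964). CDH1 was nearest to SEPTIN8 (0.9911) and ATRN (0.9875), and OCLN to HOXA6 (0.9872) and LPIN1 (0.9853). ZEB1 was nearest to TMED4 (0.9751) and SMAD3 (0.9733), a transducer of TGF-beta signals, and SNAI2 to AC004967.1 (0.9898) and AC090498.1 (0.9862).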
